A study of Mus musculus with 10 samples.

Results

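Serotonin (5-hydroxytryptamine) acts on a family of receptors, and 10 receptor genes of that family were followed here across 10 mouse brain arrays: Htr1a, Htr1b, Htr1d, Htr2a, Htr2c, Htr3a, Htr4, Htr5a, Htr6 and Htr7. The genes were chosen by name, as receptors of this transmitter, and not by their values, but with earlier results of these data known. Of the 10 genes, 9 matched a probe through the transcript accession that the array files carry, giving 11 probes out of 41174 on the array and 9 of 18539 named genes. Htr2c and Htr4 had 2 probes each. Htr3a matched no probe and was not analysed here.

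Serotonin is made by neurons of the brainstem raphe nuclei, whose axons reach most of the brain. Its receptors sit mostly on the receiving neurons, and their messages are therefore spread over cortex, hippocampus, striatum, hypothalamus and choroid plexus. All of them except the Htr3 channels are G protein coupled receptors. Htr1 and Htr5 receptors couple to Gi/o proteins, Htr2 receptors couple to Gq/11, and Htr4, Htr6 and Htr7 receptors couple to Gs.

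Each array carried RNA from the left hemibrain of a male C57BL/6J mouse, labeled with Cy-5, together with a comparison RNA labeled with Cy-3. The mice were single-housed from 3 weeks of age and fed either a standard diet (SD) or a fish oil diet rich in n-3 fatty acids (FD) for 20 weeks, to an age of 5 months. In the labels every Cy-5 sample is entered as FD, and yet described as a control, with pooled SD hemibrains in Cy-3, whereas the methods name 4 FD and 3 SD arrays and a purchased reference RNA. The diet of each array is thus unsettled, no FD against SD comparison was made, and values are given by array (C10-413 to C10-437, the labels' animal numbers) or as a median and range. A value is log2 of the Cy-5 signal over the Cy-3 signal of a probe, so 0 is an equal signal and 1 is a 2-fold higher signal in the hemibrain RNA. A probe counts as above background in a dye where the scanning software marked it well above background.

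The Cy-5 samples held the messages of brain tissue. All 10 neuronal, 6 astrocytic and 6 oligodendrocytic marker genes lay above 0 on every array with a value, with list medians of 5.53, 5.46 and 4.81. Of these genes 7, 4 and 5 were also well above background in Cy-3 on all 10 arrays. A hemibrain pool in Cy-3 would carry the same markers, so these ratios go against that label and the Cy-3 sample is called the comparison RNA below. Of 5 liver genes found, 1 (Ttr, also a choroid plexus gene) was above 0 and 2 were below 0 on every array. In the Cy-5 channel, 68.2% to 76.9% of probes stood well above background on 9 arrays, against 49.8% on C10-434. That array therefore stood apart, and results that rest on it are given with and without it. Because whole hemibrains were measured, fewer cells that carry a receptor and less RNA per cell cannot be told apart.

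Htr2c (probe A_52_P487454), Htr1a and Htr7 were the receptors that stood out from the comparison RNA. Their signal was bright in hemibrain RNA and was not well above background in Cy-3 on any array, whereas the second Htr2c probe was above background in both dyes on 7 arrays. Htr5a, Htr6, Htr1d and Htr2a had median log2 ratios between 0.21 and 0.71, and Htr1b and Htr4 were not well above background in hemibrain RNA on any array. Over the 9 genes, each represented by its brightest probe, Cy-5 lay above Cy-3 on all 10 arrays for 4 (Htr1a, Htr2a, Htr2c and Htr7) and below on all arrays for 0. The same was true for 31.3% and 33.9% of the 17659 genes measured on all 10 arrays, and the median over genes was 0.06. On C10-434, Htr1a, Htr2a and Htr7 had ratios of 0.48, 0.31 and 0.50 with neither dye well above background. Their place in the count of 4 therefore rests on dim signals there. Without C10-434 the count was 5, with Htr6 added. The share of all genes without that array was not computed, so this count has no share to be set against. The pattern of Htr1a, Htr2c and Htr7 (Cy-5 well above background on at least 9 arrays and Cy-3 on 0) was defined after their values were seen and held for 1.26% of genes (234 of 18539). Among these 234 genes, 117 reached 9 arrays and not 10, and for every one of the 117 the missing array was C10-434.

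**Figure D1:**
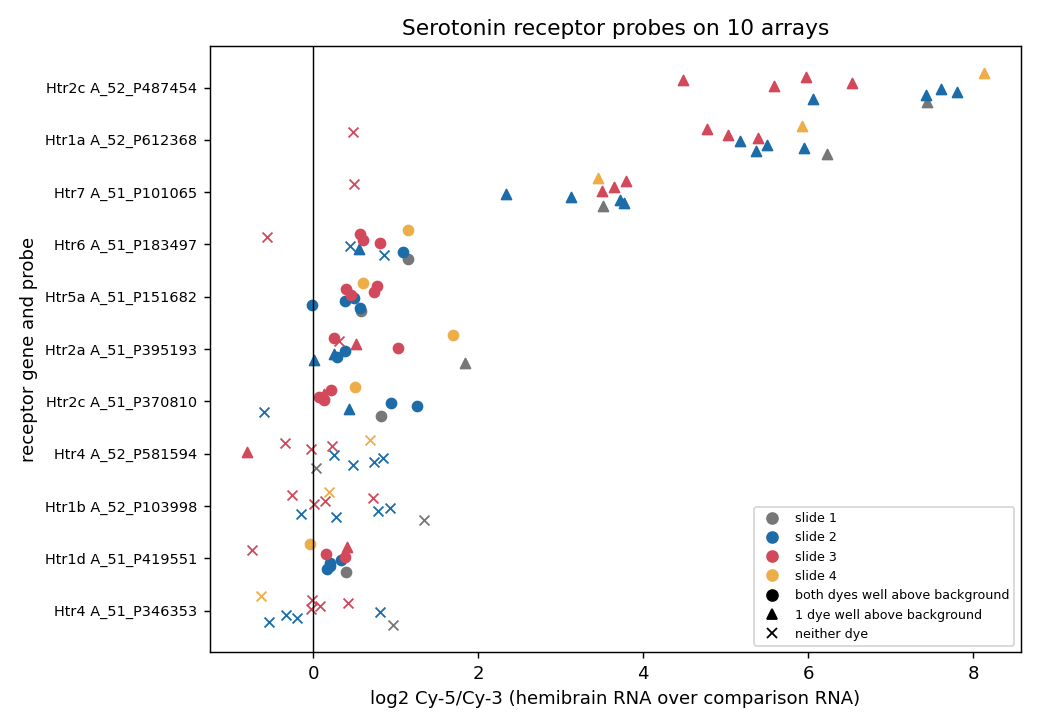
Log2 Cy-5/Cy-3 (horizontal axis) of the 11 receptor probes (vertical axis) on 10 arrays, colored by slide. Circles mark both dyes well above background, triangles 1 dye and crosses neither. Htr2c (A_52_P487454), Htr1a and Htr7 lay far to the right except for the C10-434 crosses of Htr1a and Htr7 near 0.5, and their triangles have no order among probes because their Cy-3 signal gives only a bound.

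Htr1a encodes the Gi/o-coupled receptor that serves both as the autoreceptor of raphe neurons and as a postsynaptic receptor in hippocampus and cortex. Its Cy-5 signal was between 291 and 701 on 9 arrays and was 28.0 on C10-434, where it was not well above background. Its Cy-3 signal was between 6.81 and 20.0 and was nowhere well above background. The log2 ratio was 0.48 at its lowest, on C10-434, 5.37 at the median and 6.23 at its highest, on C10-413. On the 9 arrays with a Cy-5 signal, the ratios lay between 4.77 and 6.23. Set against the lowest Cy-3 signal that was well above background on the same array, the hemibrain signal was at least 5.90-fold higher on C10-435 and at least 16.7-fold higher on C10-413, with a median bound of 8.96.

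Htr2c encodes a Gq/11-coupled receptor that is abundant in choroid plexus and is also made by neurons of the hypothalamus, striatum and cortex. Probe A_52_P487454 had Cy-5 signals of 582 to 3798, which stood well above background on all 10 arrays, C10-434 included. Its Cy-3 signal lay between 8.90 and 35.6 and was not well above background on any array. The log2 ratio was lowest on C10-434 at 4.48, 6.98 at the median and highest on C10-437 at 8.12. The bounds ran from at least 8.86-fold on C10-434 to at least 102-fold on C10-423, with a median of 39.5. The bound differed widely among the arrays. Its side carries no information, because such a bound is given only where Cy-5 is well above background and Cy-3 is not.

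The second Htr2c probe, A_51_P370810, gave another picture. Its log2 ratio was lowest at -0.59 on C10-415, where neither dye was well above background, 0.32 at the median and highest at 1.26 on C10-417. Its Cy-5 signal of 32.1 to 343 and Cy-3 signal of 48.4 to 271 overlapped, and they were well above background on 7 and 9 arrays. On the 7 arrays where A_51_P370810 had both dyes well above background, the bound for A_52_P487454 exceeded its log2 ratio by 4.39 (C10-435) to 5.73 (C10-437), with a median of 4.81, so these differences are lower limits. Both probes carry the same transcript accession. The ratio read for Htr2c in these arrays therefore depends on the probe. The part of the transcript each probe targets was not analysed here.

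**Figure D2:**
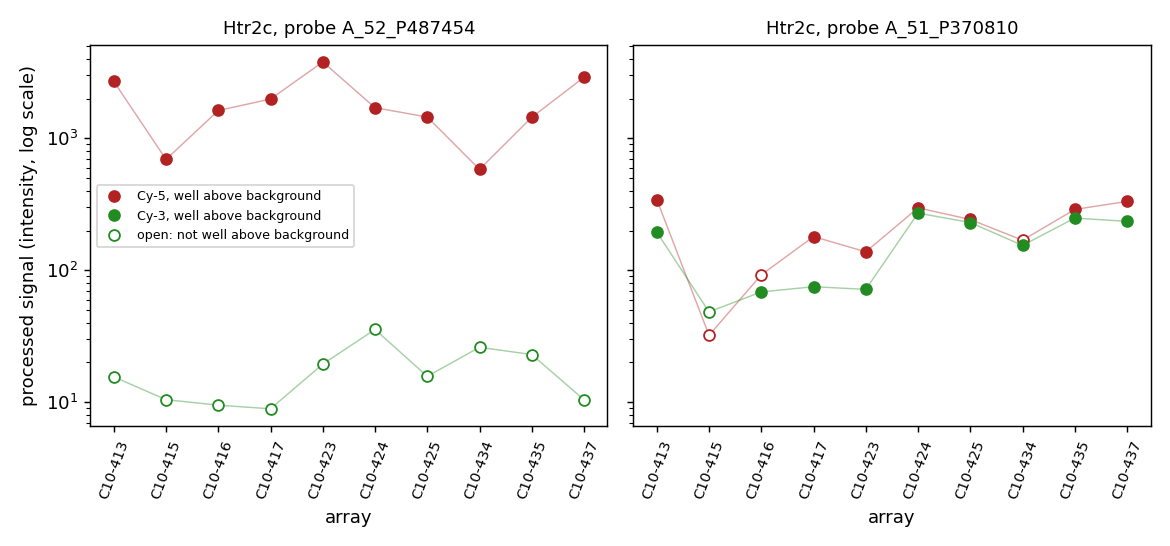
Processed signal (vertical axis, logarithmic) of the 2 Htr2c probes on the 10 arrays (horizontal axis), with Cy-5 in red and Cy-3 in green. Open points were not well above background. Cy-5 (582 to 3798) and Cy-3 (8.90 to 35.6) were far apart for A_52_P487454 and overlapped for A_51_P370810.

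Htr7 encodes a Gs-coupled receptor known from thalamus, hypothalamus and hippocampus. Its Cy-5 signal was between 157 and 372 on 9 arrays and was 28.5 on C10-434, where it was not well above background. The Cy-3 signal of 11.5 to 36.2 was nowhere well above background. The log2 ratio was 0.50 on C10-434, 3.50 at the median and 3.80 at its highest, on C10-435, and between 2.34 and 3.80 without C10-434. The hemibrain signal was at least 2.64-fold higher on C10-425 and at least 8.87-fold higher on C10-413, with a median bound of 4.90.

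The bases before the start of Htr1a and Htr2c are shown because both genes shared the pattern of a bright Cy-5 and a dim Cy-3 signal. They were read from a RefSeq table of assembly GRCm38.p6 and end where the annotated gene begins. Capitals mark GGGCGG (the core of a GC box) or CCAAT, on either strand.
Htr1a, chr13:105443443-105443692, plus strand: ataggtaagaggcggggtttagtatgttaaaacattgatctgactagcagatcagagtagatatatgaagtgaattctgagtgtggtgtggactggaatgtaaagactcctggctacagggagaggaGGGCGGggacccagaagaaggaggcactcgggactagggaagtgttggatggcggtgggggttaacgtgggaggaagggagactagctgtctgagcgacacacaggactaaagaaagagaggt
Htr2c, chrX:146962263-146962463, plus strand: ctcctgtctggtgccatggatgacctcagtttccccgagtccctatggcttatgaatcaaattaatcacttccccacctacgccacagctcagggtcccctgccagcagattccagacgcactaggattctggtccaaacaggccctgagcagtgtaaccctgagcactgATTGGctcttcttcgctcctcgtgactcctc

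Htr1a held 1 GGGCGG match and no CCAAT, and Htr2c held 1 CCAAT match and no GGGCGG. Over 32851 windows of 250 bases in the same table, 32.7% held GGGCGG and 33.8% held CCAAT, so neither match is uncommon. The 250-base windows held 6 CG pairs for Htr1a and 5 for Htr2c, against a median of 6 over all windows. The window given for Htr7 lies inside the annotated gene and is not printed. The arrays measured no property of these sequences.

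Htr5a, a Gi/o-coupled receptor of forebrain neurons, was the only one of the 9 genes with both dyes well above background on all 10 arrays, a state that 61.3% of named genes shared. Its log2 ratio was -0.01 on C10-416, 0.53 at the median and 0.78 on C10-435, and it was above 0 on 9 of 10 arrays. The scanning software's own error for this probe lay between 0.21 and 0.33, and the ratio exceeded that error on 9 arrays and exceeded 2 errors on 6. The Cy-5 signal itself ran from 105 on C10-413 to 614 on C10-424 and the Cy-3 signal from 70.3 to 445 on the same arrays. Both dyes were thus lowest and highest together.

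Htr6 encodes a Gs-coupled receptor that is richest in striatum. Its log2 ratio was -0.56 on C10-434, 0.71 at the median and 1.16 on C10-437, and between 0.44 and 1.16 on the other 9 arrays. Both dyes were well above background on 6 arrays, where the ratios lay between 0.56 and 1.16. On C10-434 neither dye was, with signals of 32.3 in Cy-5 and 47.6 in Cy-3. Across all 10 arrays the ratio exceeded the software's error on 8 and exceeded 2 errors on 4.

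Htr1d, a Gi/o-coupled receptor found on axon terminals, differed little between the dyes. Its log2 ratio was -0.74 on C10-434, where neither dye was well above background, 0.21 at the median and 0.41 on C10-435. On the 8 arrays with both dyes well above background it lay between -0.04 and 0.40. The ratio exceeded the software's error on 3 arrays and 2 errors on 0.

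Htr2a encodes a Gq/11-coupled receptor of cortical pyramidal neurons. Its log2 ratio was 0.01 on C10-415, 0.35 at the median and 1.84 on C10-413, and it was above 0 on 10 of 10 arrays. C10-413 (1.84), C10-437 (1.69) and C10-424 (1.03) were high and the other 7 arrays lay between 0.01 and 0.52. The Cy-5 signals of those 3 arrays were 143, 205 and 145, against 42.8 to 78.6 elsewhere, not scaled for the brightness of each array. As log2 signal less the array's 75th percentile, Cy-5 was -4.39 on C10-413 and -4.36 on C10-434, whose ratio was low. On C10-434 neither dye was well above background, so these values do not show an equal hemibrain signal on the arrays. On the same scale, Cy-3 on C10-413 was the lowest of the 10 arrays (-6.17). The 3 arrays with the highest ratios came from 3 different slides. Only these 3 ratios exceeded 2 of the software's errors, and both dyes were well above background on 5 arrays. On C10-413 the Cy-3 signal was not, so that ratio stands as a hemibrain signal at least 3.41-fold higher.

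Htr1b, the Gi/o-coupled receptor of axon terminals, had Cy-5 signals of 12.8 to 40.2 and Cy-3 signals of 10.6 to 22.7, neither well above background on any array. Htr4, a Gs-coupled receptor of striatum and hippocampus, had Cy-5 signals of 9.96 to 34.1 with probe A_51_P346353 and 11.3 to 54.7 with probe A_52_P581594, also nowhere well above background. In Cy-3, A_52_P581594 was well above background on 1 array, C10-424, at 95.2. Of all named genes, 9.78% stood above background in hemibrain RNA on 0 arrays. Ratios of Htr1b and Htr4 scattered around 0, from -0.80 to 1.35, and none exceeded 2 of the software's errors. A signal below background sets only an upper limit on the message in a whole hemibrain.

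Among the 4 other receptor genes with a probe, Htr5b, a Gi/o-coupled relative of Htr5a, had the pattern of Htr1a. Its log2 ratio was 2.72 on C10-434, 5.23 at the median and 6.18 at its highest, with Cy-5 well above background on 9 arrays and Cy-3 on 0. Its hemibrain signal was at least 5.87-fold to at least 15.7-fold higher. Htr1f, another Gi/o-coupled receptor, lay between 0.68 and 1.97 with a median of 1.27, and its ratio exceeded 2 of the software's errors on 10 of 10 arrays. Both dyes of Htr1f were well above background on 6 arrays, with ratios of 0.68 to 1.76. Its highest ratio came from C10-434, where neither dye was. Htr2b (A_52_P181925) lay between -0.26 and 0.33 with both dyes well above background on every array, and Htr3b, a channel subunit, was not well above background on any array.

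The genes that make, carry and break down serotonin were also measured. Of 9 such genes, 6 lay above 0 and 1 below 0 on all arrays, against the 31.3% and 33.9% of genes given above. The raphe genes Tph2, the neuronal enzyme that starts serotonin synthesis, and Slc6a4, the serotonin transporter, each had a Cy-5 signal well above background on 9 arrays, all but C10-434. Their Cy-5 signals ran from 23.7 to 718 for Tph2 and from 29.7 to 924 for Slc6a4. In Cy-3, Slc6a4 was not well above background on any array, and its hemibrain signal was at least 2.96-fold to at least 22.01-fold higher on the 9 arrays, with a median bound of 11.98. Tph2 had both dyes well above background on 4 arrays, with log2 ratios of 1.93 to 3.97. Fev, the transcription factor of raphe serotonin neurons, lay between -0.28 and 0.32 with both dyes well above background on all arrays. Maob, the monoamine oxidase of astrocytes and serotonin neurons, was high on every array (5.44 to 7.32), whereas its relative Maoa was below 0 on every array (-1.14 to -0.42). Ddc and Slc18a2, shared with dopamine neurons, had medians of 1.94 and 1.22. Tph1, the synthesis enzyme known from pineal gland and gut, had a median of 0.59 with its brightest probe, A_51_P458130. Its other probe, A_52_P613868, was not well above background in either dye on any array. Aanat, the pineal enzyme that acts on serotonin, had a median of 1.47 with Cy-5 well above background on 5 arrays.

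For the proteins that carry the receptor signal onward, the brightest probe was higher in hemibrain RNA on every array with a value for 13 of 14 genes, against the same 31.3% of genes. Of 9 signalling genes with several probes, 5 (Gnai1, Gnao1, Gnas, Kcnj6 and Plcb1) had another probe that was not above 0 on all arrays. That Kcnj6 probe was not well above background in either dye on any array. That of Plcb1 was below 0 only on C10-437 (-0.04). Those of Gnao1 and Gnas had both dyes well above background on only 4 to 6 arrays. The widest split was Gnai1, whose probe A_51_P367834 had both dyes well above background on all 10 arrays and lay below 0 on 8, with a median of -0.81. Its probes A_52_P653585 and A_52_P920129 lay above 0 on all 10 arrays, with medians of 5.70 and 6.83. By the brightest probe, the Gi/o subunits Gnai1, Gnao1 and Gnaz had medians of 4.28, 2.83 and 2.91. The Gs side was led by Adcy5, the adenylyl cyclase of striatum, at 4.70, while the Gs subunits Gnas and Gnal had 1.34 and 1.49. On the Gq/11 side, Plcb1 had 4.35 and Gnaq 1.85, whereas Gna11 and Plcb4 were near 0.5 (0.57 and 0.48). Of the GIRK channel subunits, opened by Gi/o-coupled receptors, Kcnj6 and Kcnj9 had 2.53 and 5.53, with Cy-3 well above background on 9 arrays. Kcnj3 was not well above background in Cy-3 on any array, and its hemibrain signal was at least 3.56-fold to at least 22.1-fold higher, with a median bound of 11.6. S100a10, the p11 protein that binds Htr1b and Htr4, was the single gene below 0 on every array, between -3.36 and -2.77.

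**Figure D3:**
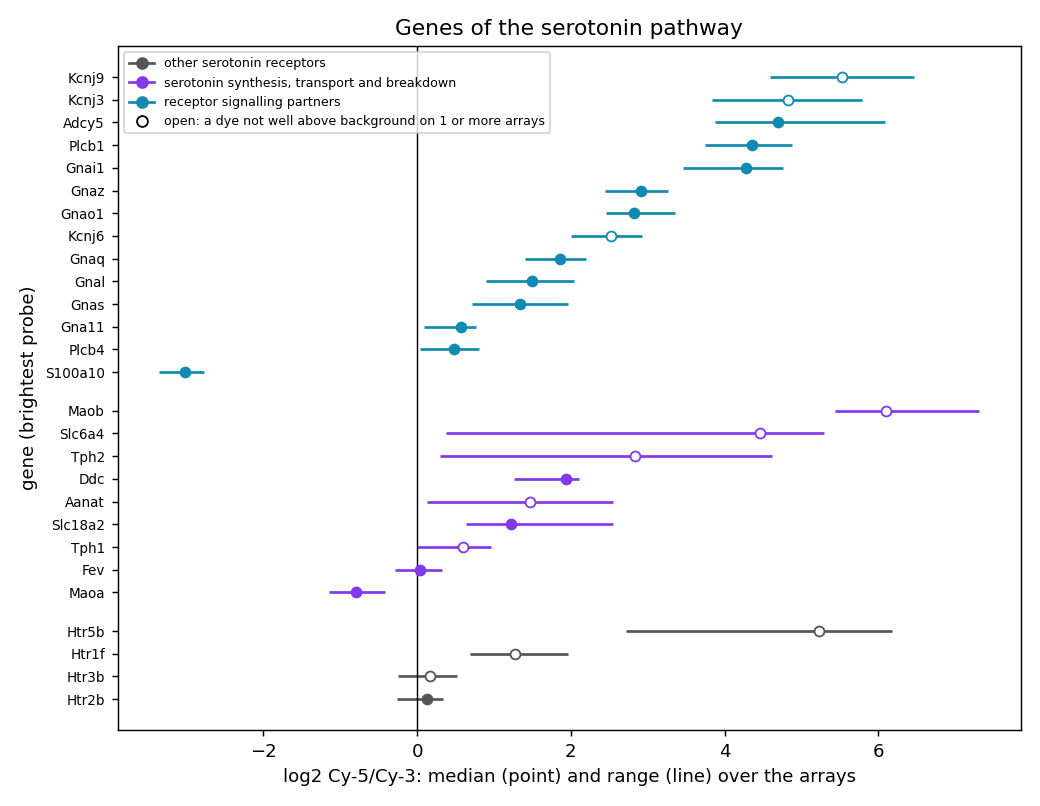
Log2 Cy-5/Cy-3 (horizontal axis) of 27 genes of the serotonin pathway (vertical axis, brightest probe of each), with the median as a point and the range over the arrays as a line. Open points had a dye that was not well above background on 1 or more arrays. S100a10 and Maoa lay below 0 on every array, and the wide lines of Slc6a4 and Tph2 include arrays without a Cy-3 signal well above background.

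The arrays came from 4 slides, of which slide 2 (C10-415, C10-416, C10-417 and C10-423) and slide 3 (C10-424, C10-425, C10-434 and C10-435) held 4 arrays each. Whether the receptors differed between these slides was tested over all probes with limma and Benjamini-Hochberg adjustment. The slides hold different animals of unsettled diet, so slide, diet and animal cannot be told apart in the ratio or in Cy-5. In Cy-3, the labels name a pool and the methods a purchased reference, in place of RNA of the array's own animal. The cause of slide differences in either dye was not tested. For the ratio, 0 of 11 receptor probes passed an adjusted p of 0.05, against 0.0755% of 41042 probes. At an unadjusted p under 0.05, 2 of 11 receptor probes passed, against 9.92% of all probes. They were Htr2c A_52_P487454 (slide 3 lower, log2 difference -1.58, limma's adjusted p 0.297) and Htr4 A_52_P581594 (-0.82, adjusted p 0.279), which was not well above background in Cy-5. For that Htr2c probe the ratios were 6.05 to 7.80 on slide 2 and 4.48 to 6.53 on slide 3, so the slides overlapped, and their Cy-3 signals were not well above background.

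The signal of each dye alone, taken as log2 signal less the array's 75th percentile, did differ between the slides. In Cy-3, 5 of 11 receptor probes passed, against 12.7% of all probes, and in Cy-5, 2 passed, against 6.56%. Htr5a was higher on slide 3 in both dyes, by 1.10 in Cy-3 and 1.33 in Cy-5 (limma's adjusted p 0.000117 and 0.00316). Its Cy-3 values were -3.71 to -3.56 on slide 2 and -2.71 to -2.45 on slide 3, its Cy-5 values -3.60 to -3.14 and -2.10 to -1.88. The slides did not overlap in either dye. Its ratio was -0.01 to 0.57 on slide 2 and 0.40 to 0.78 on slide 3, and differed by 0.24 (adjusted p 0.821).

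Htr2c A_51_P370810 was higher on slide 3 by 2.14 in Cy-3 (limma's adjusted p 9.66e-05), and its Cy-5 difference of 1.76 missed the threshold (adjusted p 0.0509). That difference passed in 2 of 8 fits that left out 1 array, without C10-415 (1.29, adjusted p 0.0373) and without C10-417 (2.11, adjusted p 0.0287). Htr6 was higher by 1.25 in Cy-3 (adjusted p 0.00109) and differed by 0.87 in Cy-5 (adjusted p 0.295), where without C10-434 it was higher by 1.22 (adjusted p 0.034). These Cy-3 calls of Htr5a, Htr6 and Htr2c A_51_P370810 and the Cy-5 call of Htr5a passed in all 8 fits that left out 1 array, with a highest adjusted p of 0.0158. Htr2a was higher by 0.61 in Cy-3 and 0.89 in Cy-5 (adjusted p 0.0459 and 0.049), but these passed in only 2 and 0 of the 8 fits, with differences of 0.49 to 0.72 and 0.76 to 1.01. The Cy-3 difference of Htr2c A_52_P487454 (1.44, adjusted p 0.0429, passing in 3 of the 8 fits) lies among signals that were not well above background. Htr7 differed by 0.00 in Cy-3 and -0.38 in Cy-5 (adjusted p 0.999 and 0.781).

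**Figure D4:**
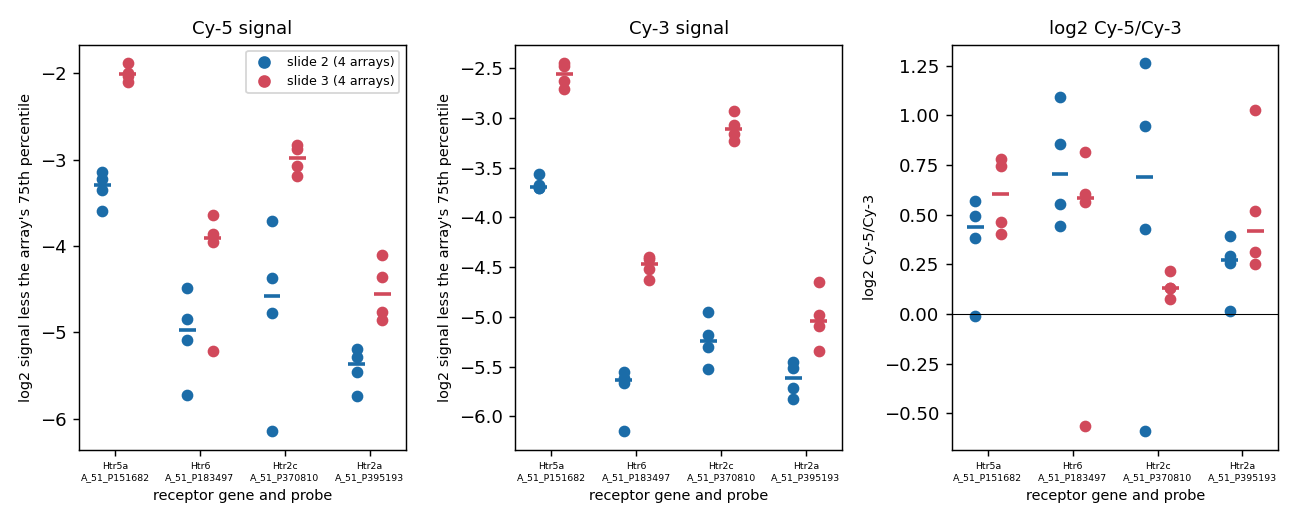
Log2 signal less the array's 75th percentile in Cy-5 (left) and Cy-3 (middle), and log2 Cy-5/Cy-3 (right), of 4 receptor probes on slides 2 and 3, with 4 arrays each as points and the median as a bar. Vertical scales differ between panels. The Htr5a points of the slides were apart in both dyes and overlapped in the ratio.

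Whether receptor ratios followed marker genes of a tissue known to be rich in them was asked over the 10 arrays. Htr2c A_52_P487454 was set against 7 choroid plexus genes, and Htr6 against 9 striatal genes, each list taken as the median deviation of its genes from their own medians. The Htr2c ratio, whose Cy-3 signal was not well above background on any array, gave Pearson's r of -0.15 and Spearman's rho of -0.08 (permutation test, two-sided, p 0.675 and 0.838, adjusted over the 2 relations 0.891 and 0.838). Without C10-415 and C10-437, the arrays farthest from the list's median, r was 0.54, and in Cy-5 signal alone over 10 arrays it was 0.16 (permutation p 0.643). Htr6 gave r of -0.05 and rho of 0.09 (permutation test, p 0.891 and 0.81, adjusted 0.891 and 0.838), and r was 0.20 without the same arrays. With slide means subtracted over the 8 arrays of slides 2 and 3, r was -0.54 for Htr2c (permutation p 0.124) and 0.07 for Htr6 (permutation p 0.85). A single slide holds too few arrays for a value of its own. Neither relation passed its test, and 2 of 4 planned relations were run, as Htr3a had no probe and Htr4 no Cy-5 signal well above background.

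The genes whose ratios ran most like a receptor's over the 10 arrays were sought among 11293 genes whose hemibrain signal stood well above background throughout. For Htr2c A_52_P487454 these were Bhlhe22 (r 0.96, and 0.92 without C10-434) and Raver2 (r 0.94 and 0.91), with that probe's Cy-3 signal not well above background. For Htr5a they were Antxr2 (r 0.90 and 0.94) and Irak1bp1 (r 0.89 and 0.89). These are the highest of many correlations over few arrays that share slides and the comparison RNA, and are given as a description.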

How the data were processed

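The 10 arrays carried RNA of separate mice. The authors deposited scanner output of Feature Extraction (version 10.10.1.1 per the file headers), with dual dye intensities on a linear scale and flags, and a table of log2 values (Cy-5 over Cy-3). The deposited scanner files also hold log10 ratios, which were not used as values. The methods name LOWESS in GeneSpring, but the deposited table was within 0.001 of the log2 ratio of processed signals for 100.0% of probes, with array medians from -0.05 to 0.10. The processed signals had already been background-subtracted and dye-normalized by the scanning software. No further normalization was applied.

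Control spots and outlier-flagged spots were left out, and spots of a probe were averaged. A probe was well above background when at least 0.5 of its spots were flagged so. No spot was saturated. Where Cy-3 was not well above background, a fold is a bound: Cy-5 over the higher of the probe's Cy-3 signal and the lowest Cy-3 signal well above background on that array. Names came from RefSeq accessions of GRCm38.p6, matching 27198 probes. Genes were represented by their brightest probe. Software was R 4.3.3, limma 3.58.1, Python 3.11.15, numpy 2.4.6 and pandas 2.3.3. The limma step was tested on simulated data, and relations used 100000 permutations.

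The named genes are all receptor probes, the fixed pathway lists, marker lists and the 2 most alike genes of each receptor detected on all arrays in Cy-5. The receptors and lists were chosen with earlier results of these data known. Single dyes in the slide comparison, with each array left out, and the count without C10-434 were added after seeing the data. The number of arrays limits the precision.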

Additional observations from a re-analysis of the deposited data

Results flagged for a closer look

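For each receptor probe, the highest and lowest of the 10 arrays were compared with their nearest neighbor, as a share of the whole range (Dixon's 95% critical value). Chance alone marks about 1 in 20 such groups, and 5 of 11 probes were marked. The share of all probes that this rule marks was not computed, so the count cannot be read as particular to the receptors. On C10-434, the array with the fewest probes well above background, Htr1a (0.48), Htr7 (0.50), Htr6 (-0.56) and Htr1d (-0.74) had their lowest ratio, set apart from the other 9 arrays. None of these 4 probes was well above background in either dye there. On the same array 34.0% of named genes had a Cy-5 signal not well above background, compared with 13.7% to 19.4% elsewhere. The part of that low signal in the 4 values was not tested. On C10-416, Htr5a had a ratio of -0.01 (-0.0091), below the other 9 arrays at 0.39 to 0.78, with both dyes well above background (209 in Cy-5 and 210 in Cy-3).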

How the results depend on the processing

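With loess or median centring, every receptor median stayed within the spread of the arrays, which was wide (0.48 to 6.23 for Htr1a). The deposited table holds the same values, and a median without 1 array cannot leave the range of all of them. Both were thus fixed in advance to stay within the spread. Without C10-434 the widest shift was that of Htr2c (A_52_P487454), from 6.98 to 7.42. Under normexp background correction with an offset of 50 and loess, which draws dim ratios toward 0 by construction, medians were 1.14 for Htr1a, 2.73 for Htr2c (A_52_P487454), 0.20 for Htr5a, 0.13 for Htr6 and 0.72 for Htr7. The count of receptor genes above 0 on all arrays, 4 in the main setting, was 5 with loess or median centring and 3 with normexp. It was 3 when all probes of a gene had to be above 0. Of the receptor genes above 0 on all arrays, 0 were left when only probes well above background in both dyes on every array were kept. Htr1a, Htr2a, Htr2c and Htr7 could not pass that filter, so their loss was fixed by it. Htr5a alone passed it, and its ratio was below 0 on 1 array. In the slide comparison, all probes called numbered 31, and 0 with normexp (1149 at an unadjusted p under 0.05), 71 among probes well above background in Cy-5, 2694 in Cy-5 alone and 5226 in Cy-3 alone, with 2 and 5 receptor probes. Leaving out 1 array gave 0 to 18 calls, and 0 receptor probes. At an unadjusted p under 0.05, 2 to 3 of 11 receptor probes passed in these fits, against 7.51% to 12.5% of all probes. In Cy-3 alone it gave 3994 to 4909 calls, and 9254 without C10-434, and in Cy-5 alone 1558 to 3019. The correlation of Htr2c turned to 0.16 in Cy-5 alone. That of Htr6 turned to 0.059 with loess, 0.17 with centring, 0.17 in Cy-5 alone and 0.068 within slides. The cause was not tested. No paired analysis was possible because the arrays have no groups. The relations of Htr3a and Htr4 were not run. Dim signal limits Htr1b and Htr4, and the folds against Cy-3 for Htr1a, Htr7 and Htr2c probe A_52_P487454.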
